A study of Mus musculus with 6 samples.

Results

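The 10 genes described here make up the core of the mammalian circadian clock and its best known output. They were chosen by name (Clock, Arntl, Per1, Per2, Per3, Cry1, Cry2, Nr1d1, Nr1d2 and Dbp), and all 10 were found by their mouse Ensembl identifier among the 35122 genes of the count table. All 10 also passed the filter on low counts, which left 13925 genes. RNA was taken from the adipocyte fraction of collagenase-digested epididymal fat of 3 control mice and 3 aPU.1KO mice, 1 library per mouse, numbered 1 to 3 within each group. The study used littermates as controls, and the labels do not say which mice shared a litter. All mice were C57BL/6 males fed chow, and all carried both copies of the floxed PU.1 gene (PU.1 fl/fl). The aPU.1KO mice also carried AdipoqCre, in which the adiponectin promoter drives Cre, so that deletion is directed at adipocytes and the PU.1 gene of macrophages is not its target. Per the labels, mice were 10 to 11 months old. The mice were kept on a cycle of light and dark with lights on from the morning to the evening. The hour of tissue collection is not given in the sources used here.

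Nearly every cell type runs this clock, adipocytes included. CLOCK and BMAL1, the protein of Arntl, bind as a pair to E-box sequences and switch on the Per, Cry, Nr1d and Dbp genes. PER and CRY proteins then inhibit that pair, while the nuclear receptors REV-ERBα and REV-ERBβ, made by Nr1d1 and Nr1d2, repress Arntl through elements that the activating ROR receptors also bind. DBP carries the rhythm to further genes through D-box sequences. As a result, Arntl and Npas2 RNA on one side and Dbp, Nr1d1 and Per RNA on the other are high at opposed times of day in most tissues, and in fat such genes cycle along with genes of lipid storage and release.

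The 3 kinds of element named above are short enough to be found by their letters, and the stretches below are shown because they hold them near the start of genes whose values are described in the next paragraphs. Promoter windows from RefSeq (build GRCm38.p6, 250 bases before to 50 bases after a start) were present for 9 of the 10 genes. Both strands were searched for the E-box CACGTG, the D-box TTANGTAA and the REV-ERB and ROR element AGTAGGTNA. Of all 32851 mouse windows, 7.15% held the E-box, 2.32% the D-box and 0.591% the REV-ERB and ROR element. At least 1 of them was found for 4 of the 10 genes: Arntl, Per1, Per3 and Cry1. Capitals mark the matches, and each stretch reads 5′ to 3′ on the strand of its gene. The first 2 lie on the plus strand at chr7:113207489-113207515 and chr7:113207536-113207557, the first across an Arntl start and the second after it, and both inside the first exon of the GENCODE annotation. The Per3 stretch is chr4:151044801-151044885 (minus strand), wholly upstream of the gene. The Cry1 stretch is chr10:85185060-85185154 (minus strand). The Per1 stretch is chr11:69098754-69098848 (plus strand), upstream of 1 start and intronic for the transcript that begins farther upstream.
Arntl element 1: cggattggtcggaaAGTAGGTTAgtgg
Arntl element 2: gaaAGTAGGTCAgggacggagg
Per3 D-boxes: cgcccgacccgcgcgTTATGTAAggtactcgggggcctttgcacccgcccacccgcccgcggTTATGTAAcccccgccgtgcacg
Cry1 E-box: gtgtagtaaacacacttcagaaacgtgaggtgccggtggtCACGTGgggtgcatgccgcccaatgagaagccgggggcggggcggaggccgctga
Per1 E-box: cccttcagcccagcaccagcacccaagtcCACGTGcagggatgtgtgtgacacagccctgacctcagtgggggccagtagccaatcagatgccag
Arntl held 2 REV-ERB and ROR elements and Per3 held 2 D-boxes, while the Cry1 and Per1 windows held 1 E-box each. A match is a stretch of letters and not a measured binding site, and the Clock, Cry2, Nr1d1, Nr1d2 and Dbp windows held none of these letters. Sites outside the windows and other forms of the elements were not searched for, so these genes are not shown to lack them. The Cry2 and Nr1d1 windows did not contain the first bases of a GENCODE transcript of their gene, so they may not cover the start used.

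At an adjusted p under 0.05 (the quasi-likelihood test of edgeR, adjusted by Benjamini-Hochberg), 0 of the 10 clock genes differed between aPU.1KO and control adipocytes, where 0.237% of all genes tested did. At an unadjusted p under 0.05, 3 of the 10 were higher in aPU.1KO adipocytes (Dbp, Nr1d2 and Nr1d1), where 11.9% of all genes passed in that direction, and 0 were lower, where 13.7% did. In either direction the 3 of 10 stood beside 25.7% of all genes, so the number passing was close to that of genes in general. DESeq2 at an adjusted p under 0.05 called 2 of the 10 (Dbp and Nr1d2), where it called 11.6% of the 16100 genes to which it gave an adjusted p. The same 3 genes were those in which every aPU.1KO mouse lay above every control mouse, as for 16.7% of all genes, and in 0 of the 10 did every aPU.1KO mouse lie below, as for 15.5% of all genes. The median log2 fold change, aPU.1KO over control, was 0.25 over the 10 genes and 0.01 over all genes tested, and it was above 0 for 7 of the 10.

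**Figure D1:**
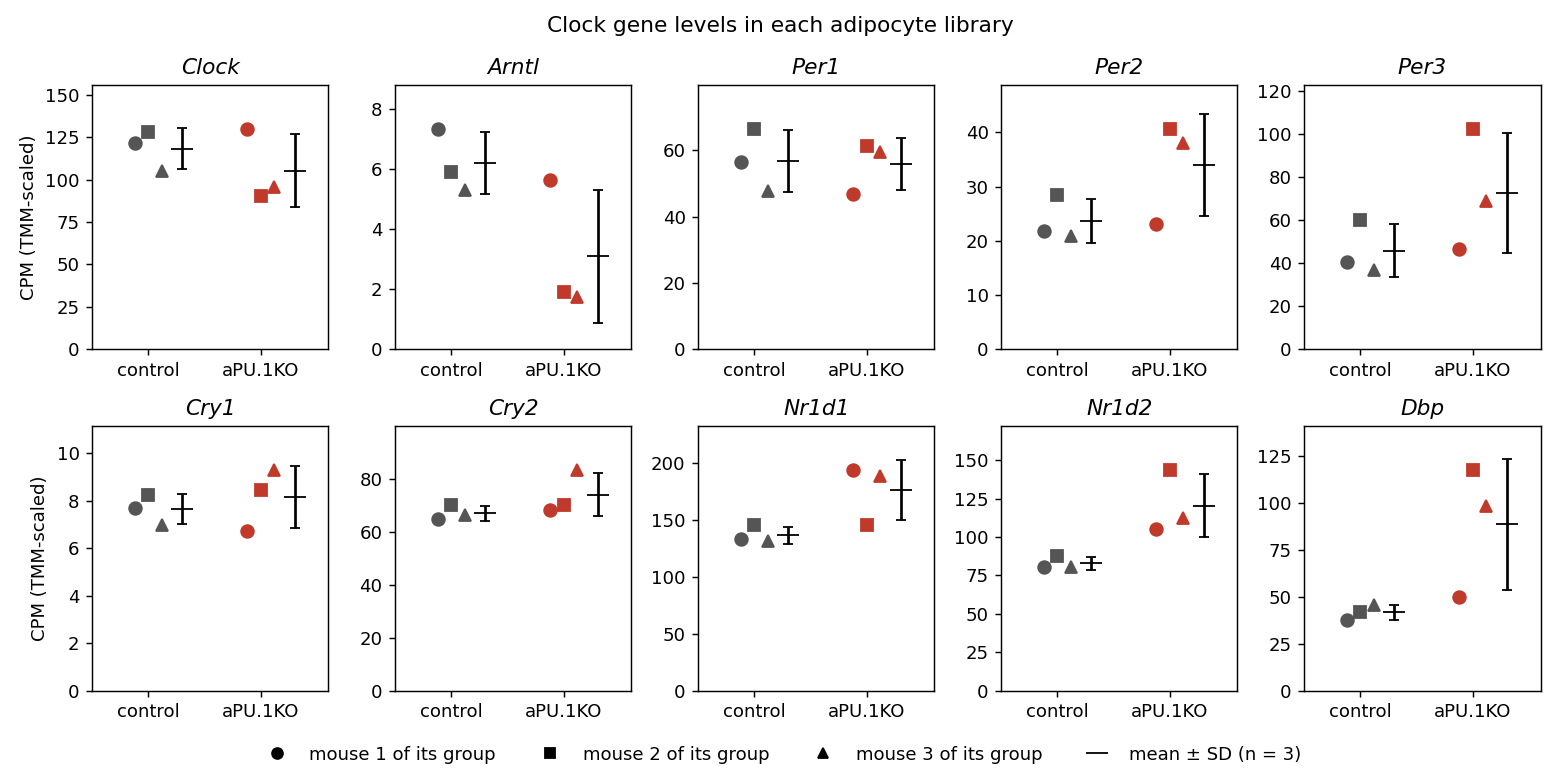
Level of each clock gene in CPM (counts relative to the total of the library, scaled by the TMM method, with each axis starting at 0) in the 3 control mice (grey) and the 3 aPU.1KO mice (red), with circles, squares and triangles for mice 1, 2 and 3 and bars for the mean ± SD (n = 3). aPU.1KO mice 2 and 3 sit at 1.90 and 1.75 CPM of Arntl and at 118 and 98.6 CPM of Dbp, while aPU.1KO mouse 1 sits near the controls for both genes.

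The activating pair differed from each other in level and in how much it varied. Arntl (ENSMUSG00000055116, chromosome 7, 113207465 to 113314126 in GRCm38) encodes BMAL1, the clock subunit that no other gene fully replaces. Its level was 7.33, 5.91 and 5.31 CPM in control mice 1, 2 and 3 and 5.64, 1.90 and 1.75 CPM in aPU.1KO mice 1, 2 and 3. aPU.1KO mouse 1 thus lay inside the control range and mice 2 and 3 far below it. Arntl had a log2 fold change of -1.01 (SE 0.46), with an unadjusted p of 0.0646 and an adjusted p of 0.222 by the quasi-likelihood test of edgeR. The counts behind these values were 532, 135 and 134 in the control libraries and 111, 42 and 37 in the aPU.1KO libraries. The result turned on single mice, since the log2 fold change was -1.77 without aPU.1KO mouse 1 and -0.72 without aPU.1KO mouse 3, with edgeR adjusted p-values of 0.135 and 0.356. Clock (ENSMUSG00000029238, chromosome 5, 76209868 to 76304792) encodes the partner of BMAL1. It was at 121.5, 128.3 and 105.1 CPM in the control mice and at 129.8, 90.2 and 95.4 CPM in the aPU.1KO mice. The same 2 aPU.1KO mice were again the lowest of the 6, by a far smaller margin than for Arntl. The log2 fold change of Clock was -0.17 (SE 0.16, edgeR adjusted p = 0.526), and it was -0.36 without aPU.1KO mouse 1, -0.07 without mouse 2 and -0.10 without mouse 3 of that group.

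Dbp and the genes of the REV-ERB receptors were the members with the smallest p-values. Dbp (ENSMUSG00000059824, chromosome 7, 45705088 to 45710203) encodes a PAR bZIP transcription factor that acts at D-boxes and is a direct output of the CLOCK and BMAL1 pair. Its level was 37.9, 41.8 and 45.4 CPM in the control mice and 50.0, 118 and 98.6 CPM in the aPU.1KO mice. Mouse 1 of the aPU.1KO group was only just above the highest control, and mice 2 and 3 were well above all controls. The log2 fold change was 1.09 (SE 0.29), a fold of 2.13, with an unadjusted p of 0.00761 and an adjusted p of 0.0942 by the quasi-likelihood test of edgeR and 0.00536 by DESeq2. Without each mouse in turn it stayed between 0.83 and 1.36. Exons of Dbp share 539 bases, 18.0% of its exon length, with Sphk2 on the opposite strand, and whether the counting used strand is not stated. Sphk2, a sphingosine kinase gene, was at 28.1, 25.4 and 28.6 CPM in the control mice and at 28.0, 22.5 and 22.8 CPM in the aPU.1KO mice. What part the shared bases had in the Dbp values was not tested.

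Nr1d2 (ENSMUSG00000021775, chromosome 14, 18204054 to 18239127), which encodes REV-ERBβ, was at 80.6, 87.7 and 80.3 CPM in the control mice. In the aPU.1KO mice it was at 105.1, 143.4 and 112 CPM, so the groups were apart and mouse 2 was the highest. This was a log2 fold change of 0.54 (SE 0.13), a fold of 1.45, with an unadjusted p of 0.00398 and an adjusted p of 0.0796 by the quasi-likelihood test of edgeR and 0.00802 by DESeq2. Nr1d1 (ENSMUSG00000020889, chromosome 11, 98767932 to 98775333), which encodes REV-ERBα, was at 133, 145.4 and 131 CPM in the control mice and at 194, 145.8 and 189 CPM in the aPU.1KO mice. The order among aPU.1KO mice was a different one here: mouse 1, close to the controls for Arntl and Dbp, was the highest, and mouse 2 exceeded the highest control by less than 1 CPM. For Nr1d1 the log2 fold change was 0.37 (SE 0.12), with an unadjusted p of 0.0215 and an adjusted p of 0.131 by the quasi-likelihood test of edgeR and 0.105 by DESeq2. Its unadjusted edgeR p was above 0.05 without control mouse 1 (0.0757), control mouse 3 (0.0706), aPU.1KO mouse 1 (0.0866) or aPU.1KO mouse 3 (0.0676). Nr1d1 shares 263 exon bases, 8.55% of its exon length, with the thyroid hormone receptor gene Thra on the opposite strand. Thra was at 67.7, 78.4 and 64.9 CPM in the control mice and at 79.1, 94.7 and 76.9 CPM in the aPU.1KO mice. Its log2 fold change was 0.25 (SE 0.11, edgeR adjusted p = 0.222). What part the shared bases had in the Nr1d1 values was not tested.

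The Period genes encode the PER proteins, which hold CRY in the inhibitory complex and set the pace of the clock. Per2 (ENSMUSG00000055866, chromosome 1, 91415982 to 91459324) was at 21.9, 28.4 and 20.8 CPM in the control mice and at 23.2, 40.6 and 38.1 CPM in the aPU.1KO mice. Per3 (ENSMUSG00000028957, chromosome 4, 151003652 to 151044665), which has the D-boxes printed above, was at 40.7, 60.0 and 37.1 CPM in the control mice and at 46.7, 103 and 68.9 CPM in the aPU.1KO mice. In both genes aPU.1KO mice 2 and 3 were the highest of the 6, and aPU.1KO mouse 1 lay inside the control range. The log2 fold change was 0.52 (SE 0.23) for Per2 and 0.67 (SE 0.31) for Per3, with edgeR adjusted p-values of 0.209 and 0.227, and that of Per3 was 0.33 without aPU.1KO mouse 2. Per1 (ENSMUSG00000020893, chromosome 11, 69095217 to 69109960), the Period gene that also responds quickly to cAMP and glucocorticoid signals, was at 56.4, 66.4 and 47.7 CPM in the control mice and at 46.9, 61.3 and 59.4 CPM in the aPU.1KO mice. Its groups overlapped over most of their range, with a log2 fold change of -0.02 (SE 0.15, edgeR adjusted p = 0.937) whose sign turned without control mouse 2 (0.09) and without mouse 1 of the aPU.1KO group (0.08).

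The Cryptochrome genes encode the direct repressors of the CLOCK and BMAL1 pair, and Cry2 had the smallest spread of the 10 genes. Cry1 (ENSMUSG00000020038, chromosome 10, 85131700 to 85185064) was at 7.70, 8.23 and 6.98 CPM in the control mice and at 6.71, 8.45 and 9.28 CPM in the aPU.1KO mice. Its log2 fold change was 0.09 (SE 0.16, edgeR adjusted p = 0.749), and without aPU.1KO mouse 3 it was -0.01. Cry2 (ENSMUSG00000068742, chromosome 2, 92403646 to 92434043) was at 64.8, 70.2 and 66.2 CPM in the control mice and at 68.4, 70.3 and 83.3 CPM in the aPU.1KO mice, with a log2 fold change of 0.14 (SE 0.09, edgeR adjusted p = 0.383) that was 0.05 without aPU.1KO mouse 3. The groups overlapped in both genes, and the highest value of each came from aPU.1KO mouse 3. Exons of Cry2 overlap the antisense gene D930015M05Rik by 295 bases, and those of Arntl overlap Gm45355 by 33 bases. Neither of these partners was analysed here.

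Per base of exon, the order of levels was led by Nr1d1 in both groups. In the control mice the mean level per kilobase of exon was 44.4 CPM for Nr1d1, 15.3 for Nr1d2, 13.9 for Dbp, 10.6 for Cry2, 10.1 for Per1, 8.62 for Clock, 4.78 for Per3, 4.05 for Per2, 2.29 for Cry1 and 0.82 for Arntl. The ranges of neighbours overlapped for Nr1d2 and Dbp, for Cry2 and Per1, for Per1 and Clock and for Per3 and Per2. In the aPU.1KO mice the order was the same but for Dbp (29.6 CPM per kilobase), which moved above Nr1d2 (22.2), with overlapping ranges. Arntl was the lowest of the 10 in both groups, at 0.41 CPM per kilobase in the aPU.1KO mice.

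**Figure D2:**
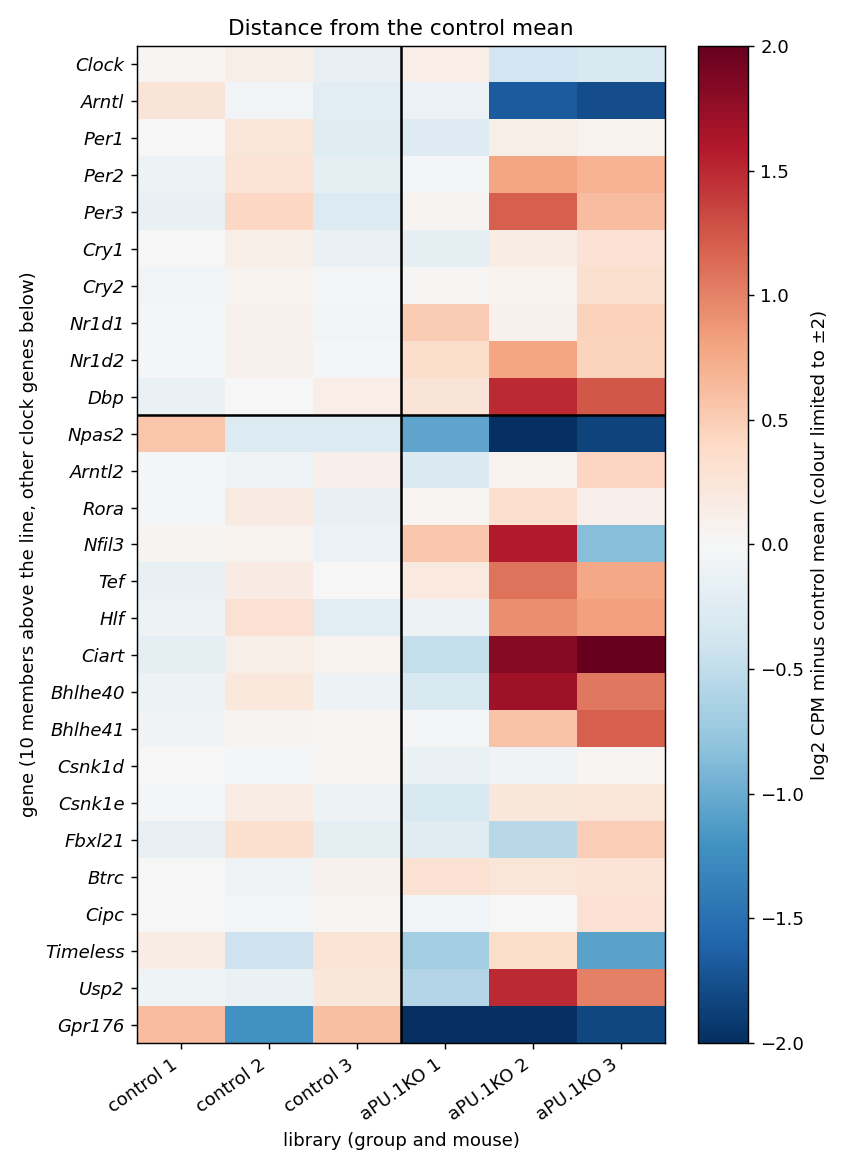
Difference between the log2 CPM of a gene in a library and the mean log2 CPM of the 3 control libraries, for the 10 clock genes (above the line) and the 17 other clock genes tested (below it); red is higher, blue lower, and colours stop at ±2. In aPU.1KO mice 2 and 3 Arntl is at -1.66 and -1.77 and Dbp at 1.5 and 1.24 from the control mean, while in aPU.1KO mouse 1 they are at -0.12 and 0.26.

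In these genes the aPU.1KO mice differed among themselves. The median absolute distance of the 10 genes from the control mean, on the log2 scale, was 0.16 in aPU.1KO mouse 1, 0.59 in mouse 2 and 0.45 in mouse 3. Over all genes tested it was 0.24, 0.30 and 0.19, so mouse 1 was not the one closest to the controls in general. Of the 3 aPU.1KO mice, mouse 1 was nearest to the control mean in 7 of the 10 clock genes and in 30.6% of all genes. The standard deviation around the group means was 0.67 for Arntl, 0.48 for Per3, 0.47 for Dbp and 0.36 for Per2, against 0.12 for Cry2 (log2 scale). Among genes of nearest average level, Dbp stood at the 97.6th percentile of that spread, Per3 at the 97.0th, Per2 at the 89.6th and Arntl at the 88.0th, while the other members stood between the 34.7th (Cry1) and the 84.2nd (Per1). In all, 2 of the 10 members and 1381 of the 13925 genes tested stood at or above the 90th.

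The ratio of the counts of Dbp and Arntl in the same library does not depend on how libraries are scaled. The count of Dbp was 5.17, 7.08 and 8.55 times that of Arntl in control mice 1, 2 and 3, 8.86 times in aPU.1KO mouse 1, and 61.9 and 56.3 times in aPU.1KO mice 2 and 3 (not corrected for length). The ratio in aPU.1KO mouse 1 was just above the highest control, and in mice 2 and 3 it was far above it. For Nr1d1 over Arntl the ratios were 18.2, 24.6 and 24.7 in the control mice and 34.4, 76.8 and 107.7 in the aPU.1KO mice. All 3 aPU.1KO mice were above the controls in both ratios, and mouse 1 was the lowest of them in both. How many other pairs of genes set the groups apart in this way was not computed.

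**Figure D3:**
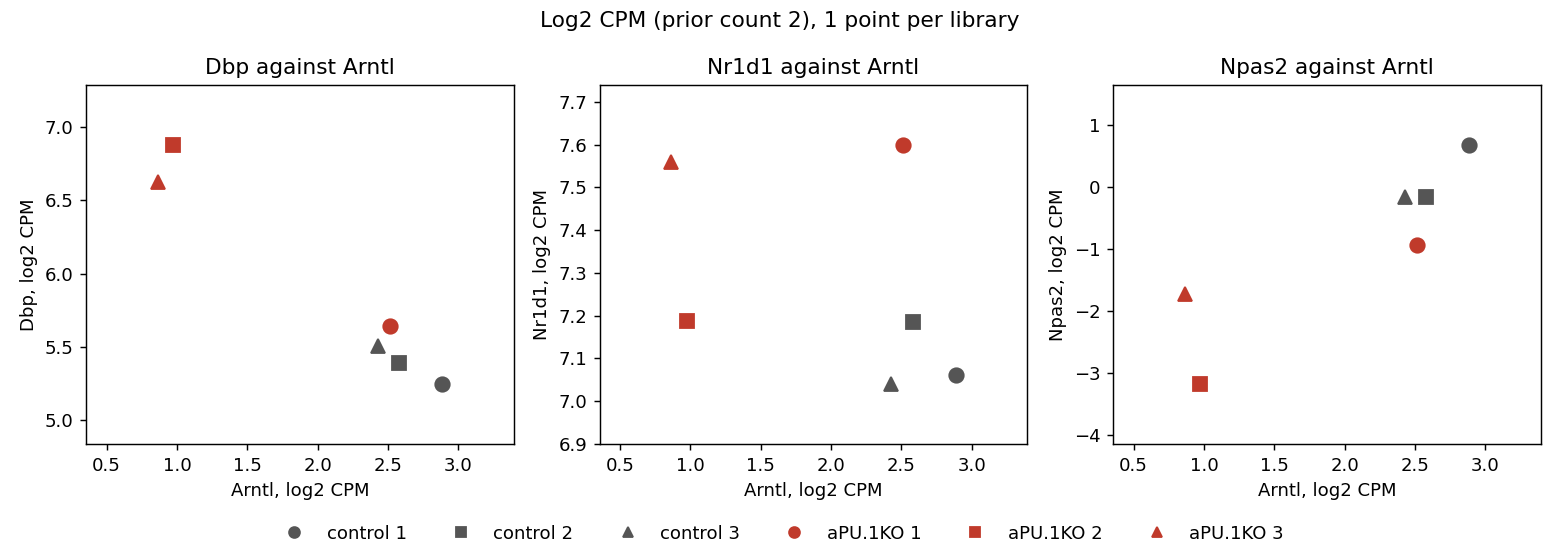
Log2 CPM of Dbp, Nr1d1 and Npas2 (vertical axes) against log2 CPM of Arntl (horizontal axis), 1 point for each of the 6 libraries, with grey for control and red for aPU.1KO mice. Dbp runs opposite to Arntl and Npas2 alongside it, while Nr1d1 is high in aPU.1KO mice 1 and 3, which differ in Arntl.

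Likeness to Arntl was measured as Pearson's r of log2 CPM over the 6 libraries, as a description. The 6 points fall into 4 libraries with Arntl between 5.31 and 7.33 CPM and the libraries of aPU.1KO mice 2 and 3, and for most members the relation over all 6 rests on those mice, so it was given no test. Among the members, r with Arntl was 0.88 for Clock, -0.98 for Dbp, -0.91 for Per2, -0.84 for Nr1d2, -0.82 for Per3, -0.78 for Cry2, -0.72 for Cry1, -0.38 for Nr1d1 and -0.35 for Per1. In the order of all genes from most alike to most opposed, Clock held place 183 and Dbp place 13919. Without aPU.1KO mice 2 and 3, over 4 libraries, r was -0.83 for Dbp, -0.49 for Cry2, -0.33 for Nr1d2, -0.30 for Nr1d1, -0.04 for Per3, -0.03 for Per2 and 0.31 for Clock, and its sign turned for Cry1 (0.50) and Per1 (0.43). Taken as deviations from the group means over all 6, r was -0.97 for Dbp and 0.47 for Nr1d1, the only member whose sign turned on that scale. The 5 genes most like Arntl among those with an average log2 CPM of at least 1 were Vac14 (0.99), Bms1, Gnl3l, Zfp101 and Lsm11 (0.97), and the 5 most opposed were Dcun1d2 (-0.99), Dnttip1, Bivm, Tchp and Ppcdc (-0.98). None of these 10 genes is on the clock lists used here, and the log2 fold change was between -0.19 and 0.32 for 9 of them and -0.63 for Lsm11.

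Of 18 further genes of the clock pathway, 17 passed the filter on low counts. The gene that did not was Rorb, of a retinoid-related receptor. By the quasi-likelihood test of edgeR, 0 of the 17 differed at a Benjamini-Hochberg adjusted p under 0.05. At an unadjusted p under 0.05, 4 were higher in aPU.1KO adipocytes (Ciart, Tef, Bhlhe41 and Btrc) and 2 were lower (Gpr176 and Npas2), beside the 11.9% and 13.7% of all genes given above. DESeq2 called 3 of the 17 at an adjusted p under 0.05 (Gpr176, Npas2 and Tef), beside its 11.6% of all genes. The median log2 fold change over the 17 genes was 0.16.

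**Figure D4:**
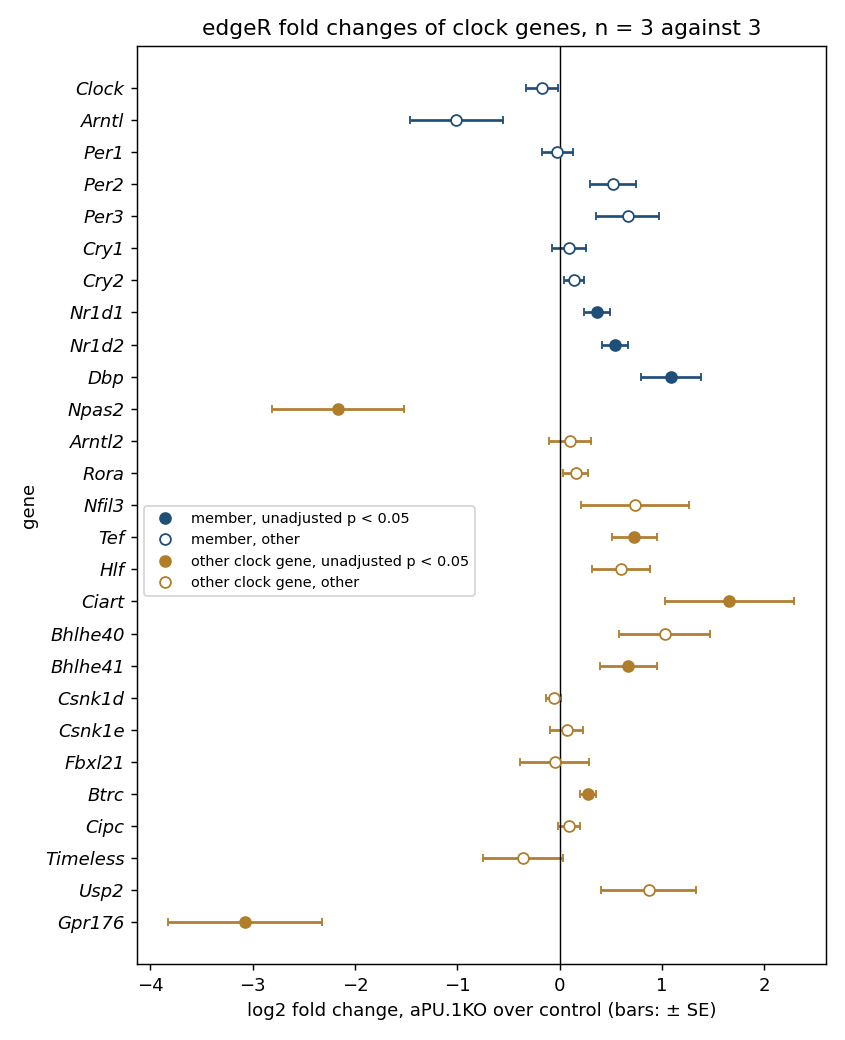
Log2 fold change, aPU.1KO over control, from edgeR for the 10 clock genes (blue) and the 17 other clock genes (ochre), with bars of ± 1 standard error and filled points at an unadjusted p under 0.05 (n = 3 against 3). Dbp (1.09) lies farthest above 0 among the members and Ciart (1.66) among the others, while Gpr176 (-3.07), Npas2 (-2.16) and Arntl (-1.01) lie farthest below.

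Among these genes, a relative of CLOCK and the other D-box factors were also uneven among the aPU.1KO mice. Npas2, which encodes a protein that can stand in for CLOCK, was at 1.54, 0.832 and 0.833 CPM in the control mice and at 0.457, 0.0452 and 0.237 CPM in the aPU.1KO mice. These rest on 112, 19 and 21 counts and on 9, 1 and 5 counts. Every aPU.1KO mouse was below every control, with mouse 1 the nearest, and the log2 fold change was -2.16 (SE 0.64, adjusted p = 0.108 by the quasi-likelihood test of edgeR and 0.0401 by DESeq2). Tef, which encodes a D-box factor of the same family as DBP, was at 118, 146 and 130 CPM in the control mice and at 149, 279 and 225 CPM in the aPU.1KO mice (log2 fold change 0.73, SE 0.22, edgeR adjusted p = 0.112). Hlf, the remaining gene of that family, was at 10.0, 13.3 and 9.32 CPM and at 9.96, 20.4 and 19.0 CPM (log2 fold change 0.60, SE 0.28, edgeR adjusted p = 0.236). In both, aPU.1KO mice 2 and 3 were the highest of the 6 and mouse 1 was within or just above the control range.

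Ciart, also called Chrono, encodes a repressor of the BMAL1 complex and had the largest positive log2 fold change of the list. Its promoter window held 3 E-boxes, more than that of any member. The windows of Tef, Bhlhe41 and Cipc, also of this list, held E-boxes too. These genes had log2 fold changes of 0.73, 0.67 and 0.09. Whether E-boxes bear on the values was not tested. The Ciart stretch is shown for its 3 E-boxes (chr3:95882249-95882368, minus strand, capitals mark the E-boxes).
Ciart E-boxes: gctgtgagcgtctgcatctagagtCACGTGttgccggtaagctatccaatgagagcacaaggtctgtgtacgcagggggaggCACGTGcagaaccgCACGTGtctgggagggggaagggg
Ciart was at 0.950, 1.18 and 1.15 CPM in the control mice and at 0.762, 4.02 and 5.49 CPM in the aPU.1KO mice. These rest on 69, 27 and 29 counts and on 15, 89 and 116 counts. Mouse 1 of the aPU.1KO group was the lowest of all 6 and mice 2 and 3 were the highest, so the groups overlapped despite a log2 fold change of 1.66 (SE 0.63, unadjusted p = 0.035, adjusted p = 0.164 by the quasi-likelihood test of edgeR). That unadjusted p was above 0.05 in 5 of the 6 fits that left out 1 mouse (0.0669 to 0.134). Bhlhe40 and Bhlhe41 encode the DEC repressors, which compete for E-boxes. Bhlhe40 was at 45.1, 55.8 and 44.8 CPM in the control mice and at 39.3, 157 and 100.1 CPM in the aPU.1KO mice. Bhlhe41 was at 27.0, 29.4 and 28.9 CPM and at 28.0, 42.2 and 65.4 CPM. Usp2, a deubiquitinase gene with a strong daily rhythm, was at 8.11, 7.84 and 10.0 CPM and at 5.69, 24.3 and 17.4 CPM. All 3 genes had the pattern of Ciart, with the first aPU.1KO mouse at or below control level and the other two above every control. Their log2 fold changes were 1.03 (SE 0.44), 0.67 (SE 0.28) and 0.87 (SE 0.47), with adjusted p-values of 0.202, 0.192 and 0.286 by the quasi-likelihood test of edgeR. Bhlhe41 did not pass the unadjusted threshold under 10 of 15 alternatives, and it had a log2 fold change of 0.31 without aPU.1KO mouse 3.

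The remaining genes that passed an unadjusted p under 0.05 had other patterns. Btrc, which encodes an F-box protein that marks PER for degradation, was at 22.3, 21.4 and 23.7 CPM and at 27.7, 26.7 and 27.1 CPM, a small difference with little spread (log2 fold change 0.28, SE 0.08, edgeR adjusted p = 0.105). Gpr176, an orphan receptor known from the central clock of the brain, was at 2.33, 0.613 and 2.30 CPM in the control mice and at 0.203, 0.0452 and 0.379 CPM in the aPU.1KO mice, on 4, 1 and 8 counts in the latter. Its log2 fold change was -3.07 (SE 0.75, adjusted p = 0.0856 by the quasi-likelihood test of edgeR and 0.00319 by DESeq2). Control mouse 2 was the lowest control, as it was for Spi1 and for macrophage markers. Without it the edgeR adjusted p of Gpr176 was 0.0234, in a fit where 1193 of 14306 genes passed 0.05. In the fit of all mice 33 genes did. The other genes had a log2 fold change between -0.36 (Timeless) and 0.74 (Nfil3). For both of these, aPU.1KO mice 2 and 3 were unlike, at 11.3 and 4.12 CPM of Timeless and 39.6 and 7.25 CPM of Nfil3. Of the aPU.1KO mice, mouse 1 was nearest to the control mean in 10 of the 17 genes and in 30.6% of all genes.

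Total counts were between 20550252 and 69283842 per library, with control mouse 1 the deepest. Spi1, which encodes PU.1, was at 24.3, 6.35 and 26.7 CPM in the control mice and at 3.20, 1.22 and 4.17 CPM in the aPU.1KO mice (log2 fold change -2.75, SE 0.64, adjusted p = 0.0788 by edgeR and 7.38e-05 by DESeq2). Counts are per gene, so reads from exons outside the floxed part are included. The 6 adipocyte markers summed to between 23693 and 26383 CPM in the control mice and between 27852 and 30344 CPM in the aPU.1KO mice, so adipocyte RNA was abundant in every library. Of the 6, 5 were higher in all aPU.1KO mice, as for 16.7% of all genes, and Lep, the leptin gene, was lower in all of them, as for 15.5%, at 4674, 4551 and 5029 CPM against 2855, 1565 and 3949 CPM. All 10 macrophage markers had a log2 fold change below 0, and for 9 of the 10 the aPU.1KO mice all lay below the controls, as for 15.5% of all genes. They summed to 1407, 394 and 1363 CPM in control mice 1, 2 and 3 and to 278, 179 and 248 CPM in aPU.1KO mice 1, 2 and 3. In bulk RNA, fewer cells of a type and less RNA per cell cannot be told apart. aPU.1KO mouse 1 was thus below every control in this sum, like the other two, while its Arntl and Per2 lay within the control range and its Dbp just above it. Its Nr1d1, Nr1d2 and Btrc lay above every control and its Npas2 and Gpr176 below every control. Sums of 5 adipose progenitor markers were 140 to 168 CPM in the control and 59.6 to 88.9 CPM in the aPU.1KO mice, and those of 7 hepatocyte markers were 37.0 to 58.9 CPM and 17.9 to 24.4 CPM. Sums of 5 endothelial markers (445 to 666 CPM and 274 to 581 CPM) and of 5 mesothelial markers (4.48 to 15.7 CPM and 6.02 to 7.96 CPM) overlapped, and of 5 epididymal epithelium genes only Crisp1 passed the filter, at no more than 0.912 CPM. The part of these cell types in the clock gene values was not tested.

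Per1, Nfil3, Bhlhe40 and Usp2 also respond to hormones and to tissue handling, so signal-responsive genes are given beside them. The 7 immediate early genes summed to 2851, 3285 and 2638 CPM in control mice 1, 2 and 3 and to 3961, 6161 and 2151 CPM in aPU.1KO mice 1, 2 and 3. The sum was thus highest in aPU.1KO mouse 2 and lowest in mouse 3, the pair that were alike in Arntl and Dbp. Of the 5 glucocorticoid response genes 1 is Per1 itself, and the other 4 summed to 339 to 404 CPM in the control and 353 to 476 CPM in the aPU.1KO mice, again highest in mouse 2. No gene of either list passed an unadjusted p under 0.05 in edgeR, where 25.7% of all genes did. Their part in the clock gene values was not tested.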

How the data were processed

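Epididymal adipocytes of 3 control and 3 aPU.1KO mice gave 1 RNA-seq library per mouse. Estimated counts per gene were deposited by the authors, made with Salmon (build GRCm38 per the labels, which also name FastQC) and summed from transcripts. They are whole numbers and were not normalized. The study's text gives a higher age than the labels. Of 35122 identifiers, 35031 matched a symbol. Coordinates and exon lengths are from GENCODE (GRCm38).

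The groups were tested with edgeR 4.0.16 in R 4.3.3, by its quasi-likelihood test after filterByExpr and TMM scaling, with Benjamini-Hochberg adjustment over the 13925 genes kept. Each standard error is the coefficient over the root of its F statistic. Log2 CPM used a prior count of 2. Exact permutation of 3 against 3 mice allows no two-sided p under 0.1, so it was not used. Nothing in the labels says that mice were paired. Within each group, no library was a duplicate of another (chi-square over degrees of freedom of 19.0 or more for each pair of replicates). Pairs across the groups were not compared. Figures were drawn with matplotlib 3.10.9. The pipeline was tested on simulated data made from these libraries for this comparison (13925 genes, 200 of them changed). Of the 200, 172 were recovered by edgeR, 171 by DESeq2 1.42.0 and 174 by limma-voom (limma 3.58.1). They also called 12, 20 and 14 genes that had not been changed. On the real counts, at an adjusted p under 0.05, edgeR called 33 of 13925 genes and DESeq2 1867 of 16100. Recovery at the spread of single clock genes was not tested.

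The members, the lists of other genes and the tests were chosen with earlier results of these data known. Genes named are the 10 members, the other clock genes that are counted or have the largest rise or fall, and Spi1. Genes whose exons overlap a member, and the 5 genes most like and most opposed to Arntl, are also named. Hlf, Bhlhe40, Usp2, Cipc, Timeless, Nfil3, Lep, Rorb and Crisp1 were named after their values were seen. Correlations are given without a p, because the libraries fall into separate clusters. Alternatives were RLE or upper quartile scaling, a filter of 10 counts in each library or no filter, DESeq2, limma-voom, robust dispersions, the legacy = FALSE option of glmQLFit, control mouse 1 thinned to the median depth, leaving out each mouse and, for correlations, a prior count of 0.5. Some genes of the pathway are not reported here.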

Additional observations from a re-analysis of the deposited data

How the results depend on the processing

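At an adjusted p under 0.05, the count of clock genes was 0 by edgeR, 2 by DESeq2 and 0 under all other alternatives, and the count of the other clock genes was 0 by edgeR, 3 by DESeq2 and 0 to 1 with each mouse left out. At an unadjusted p under 0.05, the clock genes counted were 3 by edgeR, 6 with no filter on low counts, 6 by DESeq2 and 2 to 6 with each mouse left out, where 25.7%, 20.0%, 18.5% and 12.3% to 27.4% of all genes in the fit passed, those without a filter including genes of very low count. Those that were higher were 3, 5, 5 and 2 to 5, and those that were lower were 0, 1, 1 and 0 to 2. limma-voom and legacy = FALSE also put 1 gene lower. Arntl was that gene with no filter, by DESeq2, by limma-voom and under legacy = FALSE. Without control mouse 1, Npas2 and Btrc no longer passed the unadjusted threshold. The highest total of 6 came without aPU.1KO mouse 1 (20.8% of all genes) and the lowest of 2 without control mouse 1, control mouse 3 or aPU.1KO mouse 3. The other clock genes counted were 6, 3 with at least 10 counts in every library, where fewer genes were tested, and 2 to 9 with each mouse left out. The number of all genes called at an adjusted p under 0.05 ran from 0 without control mouse 1 to 1193 without control mouse 2, 33 by edgeR and 1867 by DESeq2. With each mouse left out, Per1 had a log2 fold change of -0.14 to 0.092 (above 0 in the absence of control mouse 2, or of aPU.1KO mouse 1 at 0.08) and Cry1 one of -0.0071 to 0.21 (below 0 in the absence of aPU.1KO mouse 3), and r of Nr1d1 with Arntl became 0.47 on deviations from the group means. No other log2 fold change of a member turned its sign under any alternative. Except where named, the cause was not tested. No paired analysis was run, because the labels neither number replicates alike across groups nor identify litters. Low counts limit Npas2, Gpr176, Ciart and, in aPU.1KO mice 2 and 3, Arntl.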
